A study of Mus musculus with 14 samples.

Results

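The AP-1 transcription factors described here were 9 genes, Fos, Fosb, Fosl1, Fosl2, Jun, Junb, Jund, Atf3 and Batf. They were taken by symbol from the 55367 gene symbols of each of 2 count tables, and all 9 were found in both. The libraries came from polyA RNA of mouse bone marrow cells depleted of mature lineages, labelled wild-type in genotype and grown with the cytokines IL3, IL6 and SCF. In one experiment, called the mutant experiment here, 3 libraries came from cells transduced with a lentivirus (pSMAL) carrying luciferase as a control and 3 from cells transduced with the same vector carrying SETBP1-D868N, a mutant form of a nuclear protein that binds SET. In the other, the inhibitor experiment, every culture carried SETBP1-D868N, and 4 libraries each came from 4 days with the solvent DMSO or with 2.5 µM PF-9363, an inhibitor of the MYST family of histone acetyltransferases. The questions were which AP-1 transcripts differ in cells given the mutant protein, and which differ when such cells are given the inhibitor. The promoter that drives the transgene, the time from transduction to harvest, the age and sex of the mice and whether replicates came from separate mice are not given in the sources used here, so p-values measure the spread between these libraries.

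AP-1 is a dimer of basic leucine zipper (bZIP) proteins that binds a short palindromic DNA site. JUN proteins can pair with themselves or with FOS proteins, while FOS proteins need a partner, and ATF3 and BATF join the same network, mostly as partners of JUN proteins. FOS, FOSB, JUN, JUNB and ATF3 are textbook immediate-early genes, switched on within minutes of a growth or stress signal, while JUND is present more steadily. In blood cells AP-1 dimers are known for their part in monocyte and macrophage genes, in responses of mast cells and lymphocytes to stimulation, and, for BATF with JUN proteins and IRF4 or IRF8, in lymphocytes and dendritic cells.

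On GRCm38 with the GENCODE M21 annotation, Fos lies at chr12:85473890-85477273 and Batf at chr12:85686669-85709087, both on the plus strand. Jund (chr8:70698949-70700616, plus strand) and Junb (chr8:84974484-84978718, minus strand) share a chromosome as well. Jun lies at chr4:95049034-95052222 on the minus strand, and Jun and Jund each consist of 1 exon. Fosl2 lies at chr5:32135801-32157842 and Fosl1 at chr19:5447547-5455946, both on the plus strand, and Fosb (chr7:19302696-19310051) and Atf3 (chr1:191170296-191218039) on the minus strand. Summed over merged exons, the lengths run from 1406 bases for Batf to 9680 for Fosl2.

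Most of the members moved together in the data below, so the 250 bases before the RefSeq start site are shown for Atf3, the member that rose most with PF-9363, for Jun and Junb, which moved with it, and for Fos, which moved least among those called with PF-9363. The sequences are RefSeq promoters of build GRCm38.p6, 5′ to 3′ on the strand of the gene, and 8 of the 9 members had an entry. Capitals mark the core TGACG of cyclic AMP response and ATF sites or the longer TGACNTCA, on either strand. The Atf3 window (chr1:191183334-191183583, minus strand), the Jun window (chr4:95052223-95052472, minus strand), the Junb window (chr8:84978749-84978998, minus strand) and the Fos window (chr12:85473640-85473889, plus strand) read as follows. Windows were set by the RefSeq start, and of the 8 only those of Fos and Jun end at the GENCODE start given above. The windows of Atf3 and Fosl2 lie inside the GENCODE gene, those of Batf and Fosb overlap its start, and those of Junb and Jund lie upstream of it with a gap. The Jund window (chr8:70697489-70697738) lies much farther from the GENCODE start than that of Junb, and it is counted among the 8.
Atf3: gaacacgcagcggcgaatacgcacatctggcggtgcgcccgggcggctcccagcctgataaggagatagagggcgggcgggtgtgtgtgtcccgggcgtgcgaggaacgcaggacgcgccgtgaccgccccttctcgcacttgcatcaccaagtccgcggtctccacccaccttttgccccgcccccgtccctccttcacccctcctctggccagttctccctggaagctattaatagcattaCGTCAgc
Jun: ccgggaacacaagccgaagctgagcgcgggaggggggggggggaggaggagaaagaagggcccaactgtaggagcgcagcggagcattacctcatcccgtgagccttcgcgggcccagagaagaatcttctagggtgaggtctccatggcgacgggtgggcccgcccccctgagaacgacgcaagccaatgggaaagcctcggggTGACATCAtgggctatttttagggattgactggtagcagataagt
Junb: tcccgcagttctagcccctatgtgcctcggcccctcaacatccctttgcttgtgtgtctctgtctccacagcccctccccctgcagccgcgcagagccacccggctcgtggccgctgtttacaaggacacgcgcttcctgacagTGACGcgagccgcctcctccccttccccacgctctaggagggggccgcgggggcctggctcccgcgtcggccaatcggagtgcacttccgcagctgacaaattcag
Fos: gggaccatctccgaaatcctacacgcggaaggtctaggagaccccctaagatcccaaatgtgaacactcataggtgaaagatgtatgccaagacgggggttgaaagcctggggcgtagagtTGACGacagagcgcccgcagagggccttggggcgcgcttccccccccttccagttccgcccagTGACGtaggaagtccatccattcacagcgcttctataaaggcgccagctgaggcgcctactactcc
On both strands, TGACG was found in 5 of the 8 member windows (Fos with 2 matches, and Fosb, Junb, Atf3 and Batf with 1 each) and in 17.8% of all 32851 promoter windows of the same length. TGACNTCA was in 1 of 8, that of Jun, where it runs from 45 to 38 bases before the start, and in 7.49% of all windows. The AP-1 site TGANTCA was in 0 of 8 member windows and in 6.75% of all, and the CArG box of serum response factor was in 0 of 8 and in 1.47% of all. TGACNTCA overlaps TGACG where its N is G. A match is a run of letters only, windows were not matched for base composition, and elements farther upstream lie outside them.

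Each library of the mutant experiment held 60147266 to 68730322 counts, and each of the inhibitor experiment 7083731 to 10359093. Counts of the 9 members together were 27059 to 36377 and 3272 to 8622 per library, so values in the inhibitor experiment are less precise, and the tables were normalized separately. Levels are given as CPM, a gene's counts relative to its library's total, scaled by the trimmed mean of M-values (TMM), which sets libraries to a common level for most genes. There were 0 identical columns, and libraries of 1 group differed by more than counting noise. The cell type was checked with marker lists. The progenitor genes Kit and Cd34 were at 180 ± 2.81 and 67.4 ± 2.33 CPM with luciferase (SD, n = 3). With DMSO they were at 69.7 and 23.9 CPM. The rest of their list ran from Mecom at 1.25 to Gata2 at 500 CPM with luciferase. The T cell gene Cd3e was at 0.0253 CPM with luciferase and at 0 counts in all 8 libraries of the inhibitor experiment. The highest of the B and T cell list was Nkg7, at 58.0 CPM with luciferase and 41.5 CPM with DMSO. Cd79b came next, at 4.48 and 7.70 CPM. Markers of neutrophils, mast cells and macrophages were present as well, with the values given further on. Genes that GENCODE types as antisense took 0.0951% to 0.103% of counts in libraries of the mutant experiment and 1.41% to 1.61% in those of the inhibitor experiment. Strand handling is not given in the sources used here, so in the latter reads of a member and of a gene on its opposite strand may not have been told apart.

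With SETBP1-D868N, 7 of the 9 members were lower than with luciferase, 1 (Fosl1) was higher and 1 (Fosb) was not called, by edgeR's quasi-likelihood test at an adjusted p under 0.05. Of all 15794 genes tested, 47.2% were called in either direction, 24.5% higher and 22.7% lower. The libraries of the groups were fully apart in 8 of 9 members and in 56.7% of all genes. The median log2 fold change of the 9 was −0.32, against 0.0043 for all genes. Changes of at least 2-fold were called in 0 of the 9 members, and in 1.34% of all genes in the higher and 2.48% in the lower direction. Among all genes called, 51.9% were higher, a share that became 62.1% with scaling by library size alone.

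Among the JUN proteins, Jun, the name-giving partner of the dimer, changed most. Jun was at 43.9, 47.4 and 43.6 CPM in luciferase libraries 1 to 3 and at 25.4, 26.4 and 23.4 CPM in SETBP1-D868N libraries 1 to 3. All 3 mutant libraries lay far below all 3 controls, with a change of −0.85 on the log2 scale (SE 0.051, edgeR adjusted p 1.47e-07), or 1.80-fold lower, which placed Jun at rank 683 from the bottom of all genes tested. Jund, the steadier JUN protein, was at 208.7, 212 and 209.9 CPM with luciferase and at 167, 168 and 169 CPM with SETBP1-D868N. Replicates of Jund differed by under 1% (coefficient of variation 0.79% and 0.40%), so that a change of −0.32 (SE 0.024, edgeR adjusted p 6.58e-07), or 1.25-fold, separated the groups. Junb, which opposes JUN in several settings, went from 102, 105 and 105 CPM to 86.5, 86.9 and 90.05 CPM. Its groups did not overlap either (−0.25, SE 0.029, edgeR adjusted p 2.78e-05).

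The FOS proteins did not change in 1 direction. Fosl2 (FRA2), the most abundant of them, was at 108.5, 109.1 and 109.2 CPM with luciferase and at 69.9, 69.8 and 77.3 CPM with SETBP1-D868N. The mutant libraries were lower throughout (−0.59, SE 0.039, edgeR adjusted p 2.91e-07). Fosl1 (FRA1), a FOS protein without the transactivation domain of FOS, went the other way. It was at 3.60, 4.47 and 3.94 CPM with luciferase and at 6.46, 6.62 and 7.15 CPM with SETBP1-D868N, with no overlap. The log2 fold change was 0.75 (SE 0.096, edgeR adjusted p 4.53e-05), or 1.68-fold higher, which placed Fosl1 at rank 377 from the top of all genes tested. Fos itself, at 7.87, 7.57 and 7.36 CPM with luciferase and 6.05, 6.17 and 5.30 CPM with SETBP1-D868N, fell by 0.38 on the log2 scale (SE 0.079, edgeR adjusted p 0.00180). Fosb was close to the limit of counting, with 15 to 30 counts per library in either group. Its groups overlapped, and its log2 fold change of −0.32 had a 95% interval from −0.94 to 0.29 (edgeR adjusted p 0.432).

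Atf3, a stress-induced member that forms dimers with JUN proteins, was at 36.2, 36.4 and 37.5 CPM with luciferase and at 22.1, 24.9 and 22.8 CPM with SETBP1-D868N. The fall of 0.66 on the log2 scale (SE 0.047, edgeR adjusted p 5.41e-07) was the largest after that of Jun. Batf, which lacks a transactivation domain of its own, was at 30.2 to 31.4 CPM with luciferase and 27.4 to 28.6 CPM with SETBP1-D868N. This difference of −0.12 (SE 0.039, edgeR adjusted p 0.0208) was the smallest one called. It lost the call with scaling by library size alone (−0.075, adjusted p 0.146), without luciferase 3 (−0.11, adjusted p 0.0899) and without SETBP1-D868N 2 (−0.11, adjusted p 0.0580).

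**Figure D1:**
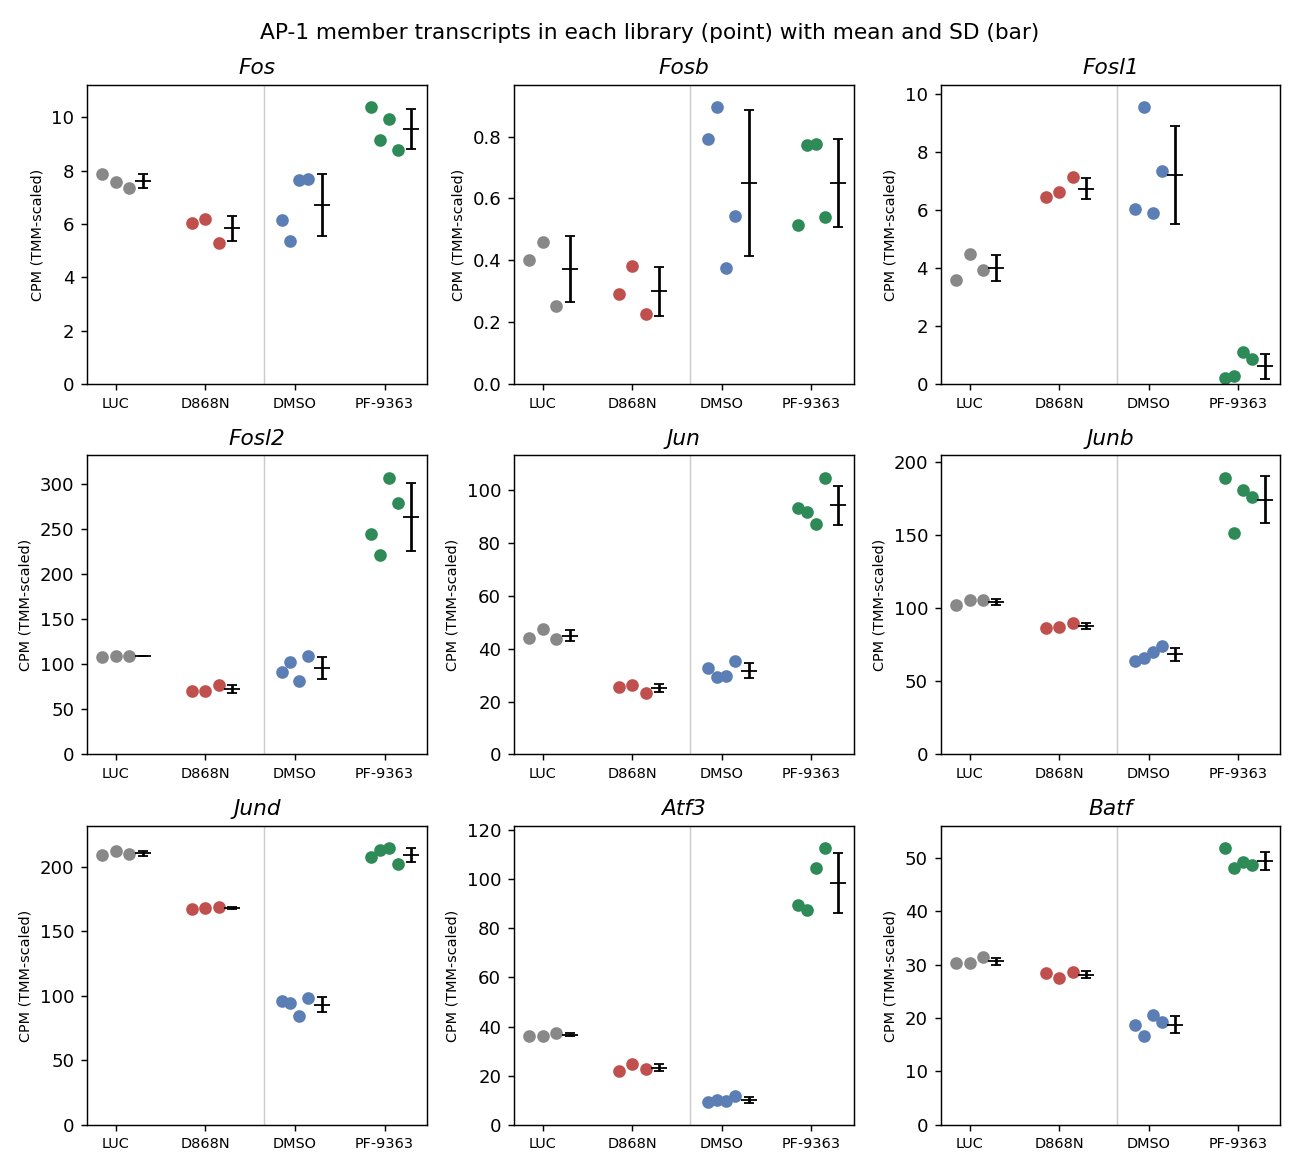
TMM-scaled CPM of each member (y axis, from 0) in every library, with 3 libraries each for luciferase (LUC) and SETBP1-D868N (D868N) and 4 each for DMSO and PF-9363 (x axis). Points are libraries, bars the mean and SD, and the grey line separates the experiments, whose levels are not comparable; Fosl1 is the panel in which the order of both pairs of groups is turned round.

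With PF-9363, 7 of the 8 members tested were higher than with DMSO and Fosl1 was lower. Of all 13456 genes tested in this experiment, 76.0% were called in either direction, 36.6% higher and 39.4% lower, so a call as such was common. All 8 changes but that of Fos were at least 2-fold, a size reached by 15.8% of all genes in the higher and by 18.1% in the lower direction. With counts of opposite-strand genes added, as given below, Jun (log2 fold change 0.82) and Junb (0.83) were under 2-fold. Across alternatives the log2 fold change of Jund ran from 0.935, under 2-fold as well, to 1.19. Libraries of the groups were fully apart in 8 of the 9 members, the exception being Fosb, and in 70.3% of all genes. The median log2 fold change of the 8 was 1.37, against −0.038 for all genes. Scaling by library size alone shifted the median gene by −0.23, and brought the higher calls from 48.1% to 36.2% of all calls.

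Atf3 rose most. It was at 9.11, 10.2, 9.63 and 11.7 CPM in DMSO libraries 1 to 4 and at 89.6, 87.4, 104 and 113 CPM in PF-9363 libraries 1 to 4. The lowest treated library was thus several times above the highest control, at a log2 change of 3.28 (SE 0.10, edgeR adjusted p 2.87e-21), or 9.68-fold, at rank 183 from the top of the 13456 genes. Batf went from 16.6 to 20.5 CPM with DMSO to 48.1 to 51.8 CPM with PF-9363 (log2 fold change 1.40, SE 0.094, edgeR adjusted p 8.58e-14).

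The 3 JUN genes all rose. Jun was at 32.6, 29.5, 29.7 and 35.3 CPM with DMSO and at 93.2, 92.0, 87.3 and 105 CPM with PF-9363, a change of 1.57 on the log2 scale (SE 0.082, edgeR adjusted p 2.49e-16), or 2.97-fold. Junb was at 63.8, 66.0, 70.0 and 73.9 CPM with DMSO and at 189, 151, 180.5 and 176 CPM with PF-9363. PF-9363 library 2 was the lowest of its group and still above every control, and the log2 fold change was 1.35 (SE 0.073, edgeR adjusted p 5.50e-16). Jund was at 95.8, 94.1, 84.5 and 98.4 CPM with DMSO and at 207, 213, 214 and 202 CPM with PF-9363. Its rise of 1.17 on the log2 scale (SE 0.063, edgeR adjusted p 6.65e-16), or 2.24-fold, was the smallest of the 3. That order did not hold with counts of opposite-strand genes added, where Jund had 1.16, Junb 0.83 and Jun 0.82.

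The FOS genes again parted. Fosl2 was at 90.9, 102, 81.3 and 109 CPM with DMSO and at 244, 221, 307 and 279 CPM with PF-9363, higher in every treated library (log2 fold change 1.45, SE 0.11, edgeR adjusted p 1.93e-07). Fosl1 fell close to the limit of counting. Its counts were 61, 96, 63 and 81 in DMSO libraries 1 to 4 and 2, 2, 7 and 8 in PF-9363 libraries 1 to 4, or 6.04, 9.56, 5.89 and 7.33 CPM against 0.206, 0.257, 1.09 and 0.866 CPM. The log2 fold change was −3.61 (SE 0.35, edgeR adjusted p 1.92e-10), or 12.2-fold lower, with a 95% interval from −4.29 to −2.94 wide for lack of reads, and it was at rank 204 from the bottom. Fos was at 6.14, 5.38, 7.66 and 7.70 CPM with DMSO and at 10.4, 9.13, 9.94 and 8.77 CPM with PF-9363, a smaller rise than that of any other member called (0.50, SE 0.17, edgeR adjusted p 0.00774). The Fos call was lost when libraries were scaled by total counts alone (0.27, adjusted p 0.135). Fosb held 4 to 9 counts per DMSO library and 5 or 6 per PF-9363 library, fell below the expression filter and was not tested. Without the filter its log2 fold change was −0.037 (SE 0.61, edgeR adjusted p 0.962), so a 2-fold change in either direction was not detectable at this depth.

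In PF-9363 libraries 3 and 4, Fosl1, Fosl2 and Atf3 were each higher than in libraries 1 and 2, while Fos, Jun, Junb, Jund and Batf did not follow that split. All 4 libraries still lay on the same side of every DMSO library, and what set them apart was not tested.

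**Figure D2:**
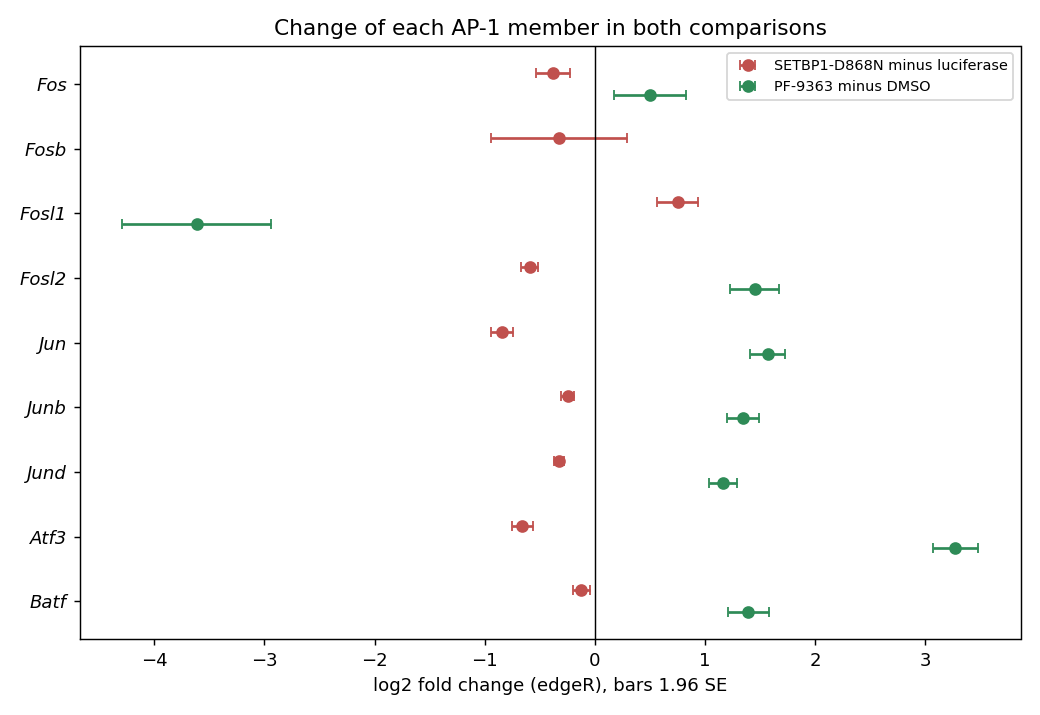
Log2 fold change of each member (x axis, with bars of the 95% interval) for SETBP1-D868N minus luciferase in red and PF-9363 minus DMSO in green. All 8 members tested in both comparisons lie on opposite sides of 0, with Fosl1 at 0.75 and −3.61 and Jun at −0.85 and 1.57; Fosb was tested in the first only.

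The 2 comparisons share no library. All 8 members tested in both were called in both, and in all 8 the direction with PF-9363 was opposite to that with SETBP1-D868N. Of the 12376 genes tested in both, 4324 (34.9%) were called in opposite directions and 1120 in the same direction. The order of sizes differed between the comparisons. Jun, at −0.85, fell most with SETBP1-D868N. With PF-9363 its 1.57 came next after Atf3, but its 95% interval of 1.41 to 1.73 overlapped those of Fosl2, Batf and Junb. Adding counts of an opposite-strand gene brought Jun to 0.82, as given below. Batf barely moved with SETBP1-D868N (−0.12) and rose by 1.40 with PF-9363, and Fos had changes of −0.38 and 0.50.

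Some members share exon bases with a gene on the opposite strand, and the values of those genes are given beside them. Fosl1 shares 1163 bases with Ccdc85b, which did not pass the test with SETBP1-D868N (log2 fold change 0.10, edgeR adjusted p 0.191) and fell with PF-9363 (−1.32, edgeR adjusted p 2.87e-10). Counts of Ccdc85b were 182% to 336% of those of Fosl1 in the mutant experiment and 192% to 3850% in the inhibitor experiment. The 2 summed, mostly Ccdc85b, gave 0.29 (adjusted p 6.84e-04) and −1.67 (adjusted p 3.63e-13), values that say little of Fosl1 alone. Jun shares 232 bases with the antisense gene Junos, which fell with SETBP1-D868N (−0.76, edgeR adjusted p 2.49e-06) as Jun did and fell with PF-9363 (−0.53, edgeR adjusted p 4.61e-05) while Jun rose. Counts of Junos were 39.9% to 47.3% of those of Jun in the mutant experiment. They were 96.2% to 135% with DMSO and 22.1% to 31.1% with PF-9363. With Junos added, Jun had −0.82 (adjusted p 8.53e-08) and 0.82 (adjusted p 1.10e-11), so the size of its rise with PF-9363 is uncertain. Jund shares 877 bases with the antisense gene Gm11175, whose counts were 0.649% to 1.24% of those of Jund in the mutant experiment and 72.5% to 92.4% in the inhibitor experiment. Gm11175 rose with PF-9363 by 1.16, as Jund did, and the 2 cannot be told apart there. Their summed counts gave 1.16 (adjusted p 3.87e-16), which does not separate them, so both the level and the fold change of Jund in the inhibitor experiment are uncertain. Junb shares 173 bases with Prdx2, which had 0.0086 (edgeR adjusted p 0.845) and 0.16 (edgeR adjusted p 0.0337), and the 2 summed gave −0.11 (adjusted p 0.00443) and 0.83 (adjusted p 8.32e-13). These sums are from edgeR as well.

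Levels of different members were compared per kilobase of merged exon, as TMM-scaled CPM per kilobase. Jund led in every group, with 126 ± 0.991 in luciferase, 100.7 ± 0.405 in SETBP1-D868N (SD, n = 3), 55.9 ± 3.64 in DMSO and 125 ± 3.35 in PF-9363 libraries (SD, n = 4). Junb was second everywhere, and Fosb was last at 0.0479 to 0.104. With luciferase the order below Junb was Batf, Atf3, Jun, Fosl2, Fos and Fosl1, and no neighbours overlapped in range. With SETBP1-D868N, Fosl1 (3.32 ± 0.179) stood above Fos (2.48 ± 0.201), and the ranges of Jun and Fosl2 overlapped. With DMSO, Atf3 (4.71 ± 0.516) came sixth and its range overlapped that of Fosl1 (3.54 ± 0.835), which overlapped that of Fos, as those of Jun and Fosl2 did. With PF-9363, Atf3 (45.7 ± 5.61) stood next to Junb, above Batf (35.2 ± 1.17), and Fosl1 (0.297 ± 0.2165) overlapped Fosb.

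Summed per kilobase, the 9 members came to 237.9 to 242.9 with luciferase and 189.2 to 192.2 with SETBP1-D868N, and to 124.1 to 139.5 with DMSO and 323.9 to 354.4 with PF-9363. In the mutant experiment the JUN genes held 77.0% ± 0.276 with luciferase and 76.9% ± 0.160 with SETBP1-D868N (SD, n = 3) and the FOS genes 6.86% ± 0.0606 and 6.98% ± 0.171. The share of Atf3 went from 7.08% ± 0.127 to 5.66% ± 0.338 and that of Batf from 9.05% ± 0.205 to 10.5% ± 0.228, each with no overlap between groups. Within the JUN share, Jun went from 5.86% ± 0.236 to 4.12% ± 0.272 and Junb from 18.8% ± 0.158 to 20.0% ± 0.319. Within the FOS share, Fosl1 went from 0.818% ± 0.0811 to 1.74% ± 0.0811 of the sum and Fosl2 from 4.68% ± 0.0341 to 3.915% ± 0.210. In the inhibitor experiment the share of Atf3 went from 3.61% ± 0.241 with DMSO to 13.3% ± 1.27 with PF-9363 (SD, n = 4). The JUN share went from 73.5% ± 0.709 to 67.2% ± 1.51 and the FOS share from 12.6% ± 0.984 to 9.19% ± 0.883, while Batf held 10.3% in both. These shares are descriptions. In the inhibitor experiment they carry the uncertainty in Jund and that in Jun, Junb and Fosl1, which also overlap genes on the opposite strand.

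**Figure D3:**
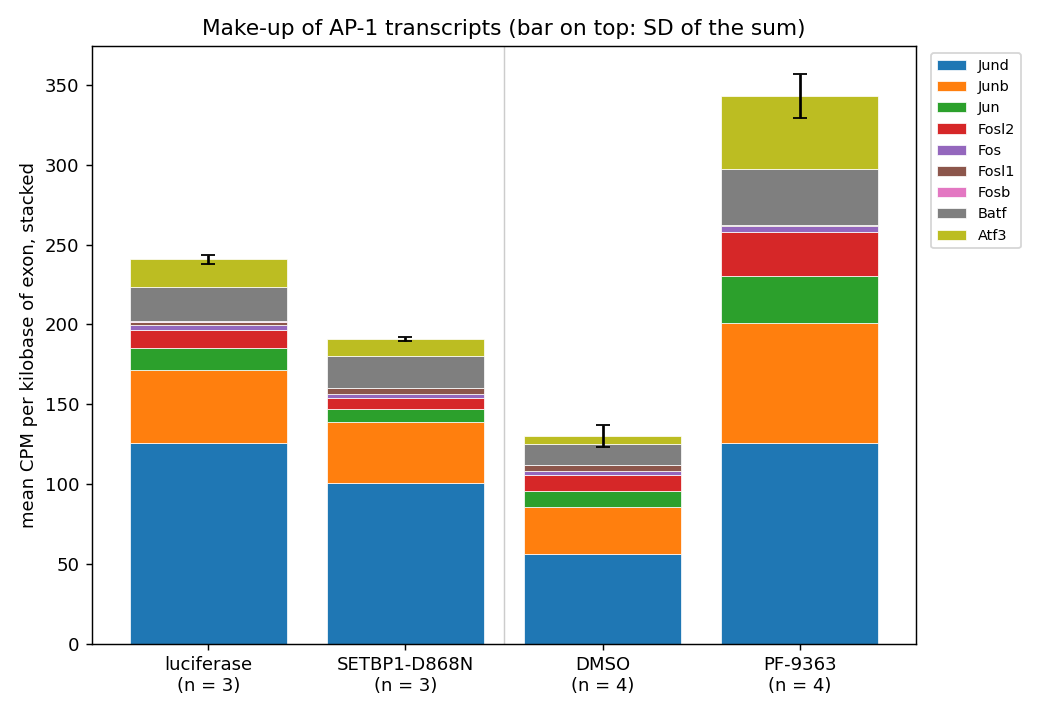
Mean TMM-scaled CPM per kilobase of exon of the 9 members, stacked (y axis), for each group (x axis, with n), with the SD of the sum as the bar on top and a grey line between the experiments. The stack is lower with SETBP1-D868N than with luciferase, and with PF-9363 the sum is 323.9 to 354.4 against 124.1 to 139.5 with DMSO, with a wider Atf3 band.

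Genes around AP-1 were examined in lists. Of all genes tested, 24.5% were called higher and 22.7% lower with SETBP1-D868N. With PF-9363 these shares were 36.6% and 39.4%, and the counts of each list below stand beside them. Genes named from them are those with the largest changes among genes called and at 5 CPM or more in a group. Of 18 related bZIP factors, 2 rose and 8 fell with SETBP1-D868N (median log2 fold change −0.14), and 13 rose and 3 fell with PF-9363 (median 1.04). With SETBP1-D868N, Maf (−0.77) and Batf3 (−0.55) fell. Maf is a factor of macrophages, and Batf3, a close relative of Batf, is known from dendritic cells. Atf4 (0.13) and Atf2 (0.089) were the 2 that rose. With PF-9363, Ddit3 (CHOP), a bZIP factor of the stress response, rose by 3.11 (SE 0.084, edgeR adjusted p 8.17e-23), and Batf3 by 2.79, and the 3 that fell were Maff (−0.80), Creb1 (−0.57) and Nfe2 (−0.15).

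The kinases that act on AP-1 proteins moved in both directions, as genes at large did. Of 19 MAP kinases and their activators, 4 rose and 11 fell with SETBP1-D868N (median −0.11). With PF-9363, 7 rose and 10 fell of 18 tested (median −0.25). Mapk8 (JNK1), which phosphorylates JUN, was called higher with SETBP1-D868N (0.14) and fell with PF-9363 (−0.77). Map2k7 (0.091), its activator, was also called higher with SETBP1-D868N. Mapk13 (−0.57), Map3k8 (−0.50) and Map3k1 (−0.36) fell. With PF-9363, Map3k8 (2.29), Map3k5 (1.61) and Map2k2 (0.996) rose, and Map2k6, an activator of p38 kinases, fell from 11.6 ± 1.06 to 0.311 ± 0.318 CPM (SD, n = 4). Its log2 fold change was −5.35 (SE 0.33, edgeR adjusted p 8.58e-15), and Rps6ka5 had −0.95.

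Serum response factor and its partners act on the Fos promoter. They were listed together with genes of the MEF2 family. Of the 9 genes so listed, 3 rose and 3 fell with SETBP1-D868N, and 5 rose and 3 fell with PF-9363. Srf itself rose with SETBP1-D868N (0.16) and fell with PF-9363 (−0.44), and so did Elk3 (0.14 and −0.72). Mef2c, of the MEF2 family, did so at 1.04 (SE 0.045, edgeR adjusted p 1.42e-08) and −2.16 (SE 0.093, edgeR adjusted p 3.42e-18). The reverse held for Mef2a (−0.31 and 1.64) and Elk1 (−0.14 and 0.97). Mrtfa fell with SETBP1-D868N (−0.33), and Elk4 rose with PF-9363 (1.30).

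A list of 11 genes covered the decay or stability of AU-rich transcripts such as that of Fos and the turnover of JUN protein. Of these, 4 rose and 5 fell with SETBP1-D868N, and 7 rose and 2 fell with PF-9363. Zfp36 (tristetraprolin), itself an immediate-early gene, had −0.45 with SETBP1-D868N and 1.68 with PF-9363, and Zfp36l1 (−0.86) and Itch (−0.22) fell with SETBP1-D868N. Elavl1 (0.23), Khsrp (0.15) and Hnrnpd (0.14) rose with SETBP1-D868N, and Hnrnpd (−1.52) and Khsrp (−0.76) fell with PF-9363. Trib1 (1.87) and Fbxw7 (1.28), the latter a subunit of a ubiquitin ligase for JUN, rose with PF-9363.

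Of 18 textbook AP-1 target genes, 17 were tested in each experiment, Mmp3 having 0 counts in every library. With SETBP1-D868N, 13 fell and 4 were not called (median −0.50), and with PF-9363, 15 rose and 2 were not called (median 1.72). Mmp9 (−0.87), Ccnd1 (−0.74) and Plau (−0.67), coding for a matrix protease, cyclin D1 and the urokinase protease, fell with SETBP1-D868N. With PF-9363 the chemokine Ccl2 rose from 33.6 to 299 CPM (3.15, SE 0.14, edgeR adjusted p 3.11e-09), Tnf from 6.16 to 50.02 CPM (3.02) and the chemokine Cxcl2 from 1.81 to 12.01 CPM (2.72). Of 16 other immediate-early genes, 2 rose and 11 fell with SETBP1-D868N (median −0.41), and 11 rose and 2 fell with PF-9363 (median 1.43). Nr4a3 (−1.08), Egr2 (−0.61) and Dusp1 (−0.61) fell with SETBP1-D868N, where Egr1 (0.53) and Dusp2 (0.25) rose. With PF-9363, Klf4 (3.62), Nr4a3 (2.68) and Egr3 (2.53) rose and Dusp2 (−0.58) and Klf2 (−0.29) fell. The calls of Atf2, Mapk8, Map2k7, Elk1, Dusp2 and Nr4a3 with SETBP1-D868N and of Nfe2 with PF-9363 were lost under some alternatives, with Map2k7 losing it under 11, Mapk8 and Nfe2 under 7 each, Atf2 and Dusp2 under 6 each, Elk1 under 3 and Nr4a3 under 1.

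**Figure D4:**
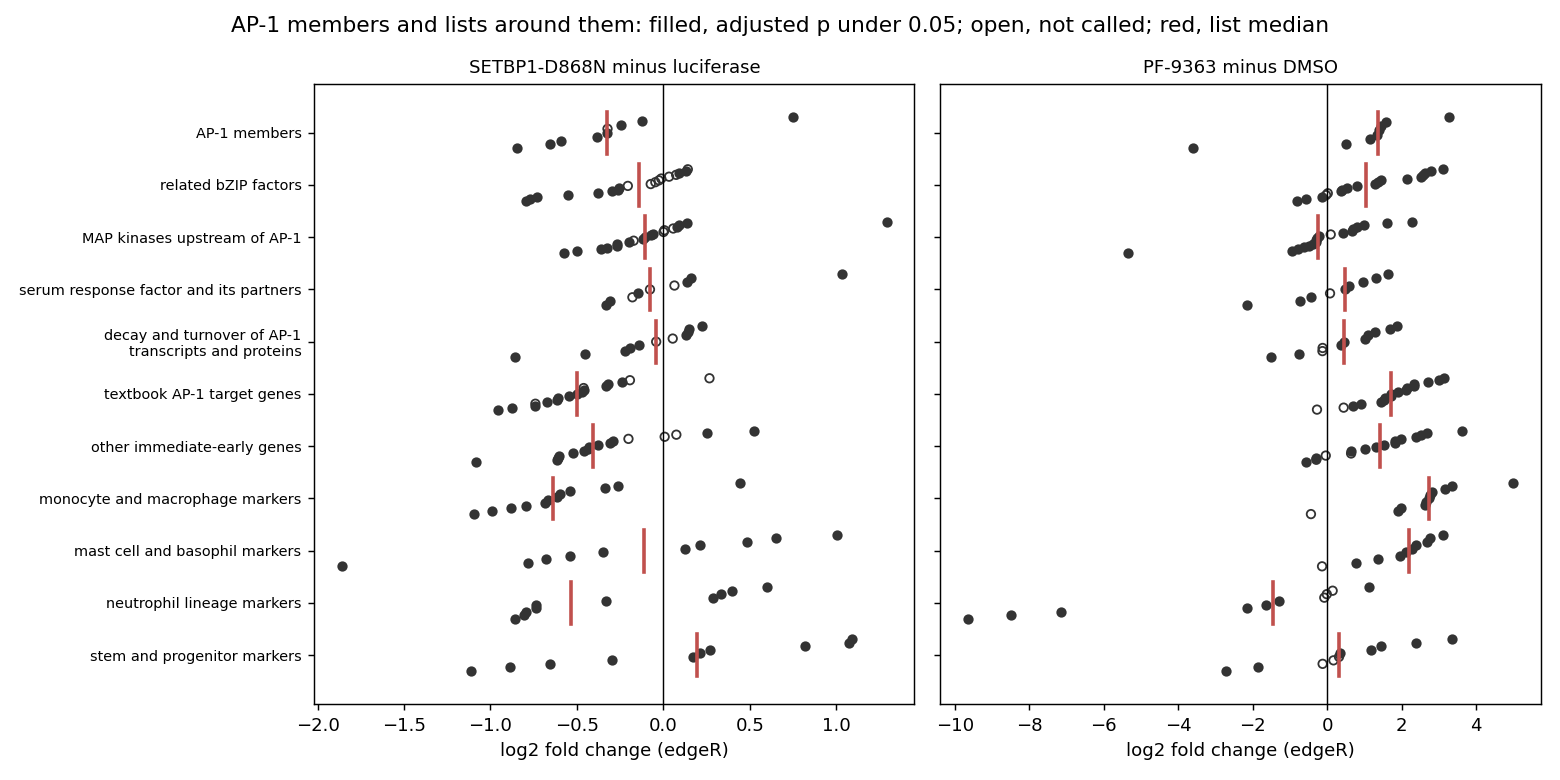
Log2 fold change (x axis, edgeR) of each tested gene in the AP-1 members and in 10 lists (y axis), for SETBP1-D868N minus luciferase (left) and PF-9363 minus DMSO (right). Filled points passed an adjusted p of 0.05, open points did not, and red bars are list medians. Most medians, that of the AP-1 members among them, lie below 0 on the left and above 0 on the right. The exceptions are the MAP kinases and the neutrophil markers, below 0 on both sides, and the stem and progenitor markers, above 0 on both.

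Markers of maturing myeloid cells changed as well. Of the 3 lists given here, that of monocytes and macrophages had most of its calls on the same side as the AP-1 members in both comparisons. The megakaryocyte markers, given at the end, did so too, with 1 higher and 4 lower with SETBP1-D868N and 3 higher and 1 lower with PF-9363. Of 12 monocyte and macrophage markers, 11 fell and 1 rose with SETBP1-D868N, and their summed level was 1091 to 1124 CPM with luciferase and 685 to 719 CPM with SETBP1-D868N. With PF-9363, 10 of 11 tested rose and 1 was not called, and the sum was 562 to 665 CPM with DMSO and 3912 to 4629 CPM with PF-9363. C1qa (−1.09), C1qc (−0.99) and C1qb (−0.88), subunits of complement C1q, fell with SETBP1-D868N, and Fcgr1 (5.0), Mertk (3.35) and the mannose receptor Mrc1 (3.17) rose with PF-9363. Of 10 mast cell and basophil markers, 5 rose and 5 fell with SETBP1-D868N, with sums of 6325 to 6589 and 6735 to 6856 CPM, and 9 rose and 1 was not called with PF-9363, with sums of 1324 to 1703 and 5462 to 6559 CPM. Fcer1a (3.11), Il1rl1 (2.77) and Cpa3 (2.67) were among those that rose. Of 10 neutrophil markers, 4 rose and 6 fell with SETBP1-D868N, with sums of 25143 to 26166 and 17260 to 19794 CPM. With PF-9363, Ltf (1.11) rose and 6 fell, with 3 not called, S100a8, S100a9 and Ngp, and with sums of 19140.5 to 22443 and 16615 to 18087 CPM, and Elane (−9.66), Mpo (−8.49) and Prtn3 (−7.14) were among those that fell. In these bulk libraries more cells of a type and more RNA per cell cannot be told apart, and the part of these cells in the AP-1 values was not tested.

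Most calls among heat shock genes, which can rise with stress to cells, were opposite in direction to those of most AP-1 members. Whether the cells were under stress was not tested. Of 8 tested, 5 rose and 3 were not called with SETBP1-D868N, among them Hsph1 (0.42), Hspd1 (0.40) and Hsp90aa1 (0.38). With PF-9363, 1 of 6 tested rose, Hspe1 (0.46), and 4 fell, among them Hsp90aa1 (−1.70), Hspa8 (−0.45) and Dnajb1 (−0.44). Hspa1a, Hspa1b and Hspb1 fell below the expression filter there and were not tested. Their means were 0.0742, 0.284 and 0 CPM with DMSO and 0.521, 0.70 and 0.0659 CPM with PF-9363. The 1 called higher became 2 without that filter or without PF-9363 library 2.

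The genes most like a member were ranked by Pearson's r of log2 CPM over the 14 libraries, centred within each experiment, among 9596 genes. This r takes in the differences between groups, and it is a measure of likeness with no test. For Jun they were Fgr (0.993), a kinase of myeloid cells, Tcp11l2 (0.992) and Sh3bp5 (0.992). Fgr had log2 fold changes of −0.89 with SETBP1-D868N and 1.77 with PF-9363, near the −0.85 and 1.57 of Jun. For Atf3 they were Psap, a lysosomal protein, Pdcd1lg2, a ligand of PD-1, and Csf2rb2, a cytokine receptor chain, each at 0.999. Their changes with PF-9363 were 2.75, 2.93 and 2.91. For Fos they were Gpsm3 (0.962), Sptlc2 (0.948) and Gpatch11 (0.946), with smaller changes of −0.35 and 0.48 for Gpsm3.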

How the data were processed

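Per the labels, the deposited values are raw counts per gene symbol, with 1 column per library and whole numbers throughout. The submitters' processing notes name STAR, DESeq2 and the builds GRCm38 and mm10, with no role. The counting program, annotation, strand setting and duplicate removal are not given in the sources used here. Per the labels' protocols, 500 ng of RNA entered Watchmaker libraries in the mutant experiment, and 100 ng went to Novogene in the inhibitor experiment.

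Each experiment was fitted on its own in R 4.3.3. Genes were kept by filterByExpr (minimum count 10, minimum total 15), scaled by TMM and tested with edgeR 4.0.16 (glmQLFit with robust estimation, glmQLFTest, group as the single factor), with Benjamini-Hochberg adjustment over all genes tested. Standard errors are the absolute log2 fold change over the square root of F. The procedure was tested on simulated data in which only a small part of the genes changed, unlike here. That test does not give its error rate for these comparisons. Coordinates, exon lengths and overlaps are from GENCODE M21, matched by symbol. Alternatives were RLE or library-size scaling, 2 other filters, DESeq2 1.42.0, limma-voom (limma 3.58.1), no robust estimation, the replicate number as a block, and each library left out. A further alternative, chosen after seeing the data, added the counts of genes on the opposite strand.

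All 9 members are named. From each other list and comparison, up to 3 genes per direction with the largest change among those called and at 5 CPM or more are named, and for Fos, Jun and Atf3 the 3 genes most like them. Some genes that this rule names are not reported here. Members and lists were chosen with earlier results of these data known.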

Additional observations from a re-analysis of the deposited data

How the results depend on the processing

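The counts of members called held within 1.5 times of 7 lower and 1 higher with SETBP1-D868N and of 7 higher and 1 lower with PF-9363 under all 15 and 17 alternatives run. Leaving out 1 library gave 6 to 7 lower and 1 higher in the first comparison and 7 higher and 1 lower in the second. With the replicate block the counts were 7 and 1 in both comparisons, and no member lost its call, although the numbers do not pair the libraries: same-numbered libraries had correlations of deviations from −0.179 to 0.0111 over genes, and no library deviated most like its own number. Of 271 member values recomputed, 0 changed sign and 4 lost a call, 3 for Batf and 1 for Fos, as given with those genes. Across alternatives the log2 fold change of Atf3 with PF-9363 ran from 3.04 to 3.35 and that of Jun with SETBP1-D868N from −0.89 to −0.80. Adding opposite-strand counts moved Fosl1 and Jun with PF-9363 most, by construction. Of 960 counts over the other lists, 60 moved by more than 1.5 times. MAP kinases lower with SETBP1-D868N, 11, became 6 with library-size scaling, 7 with the replicate block and 7 without luciferase 1 or 3. MAP kinases higher, 4, became 1 with DESeq2, 2 with the replicate block, 1 without luciferase 3 or SETBP1-D868N 2, and 2 without luciferase 1 or 2 or SETBP1-D868N 3. Related bZIP factors higher, 2, became 1 with DESeq2, the replicate block, or without luciferase 1 or 3 or SETBP1-D868N 1 or 2, and 4 with library-size scaling. Immediate-early genes higher, 2, became 1 with DESeq2, the replicate block, or without luciferase 1 or 2 or SETBP1-D868N 1 or 3. Neutrophil markers higher with PF-9363, 1, became 2 with RLE scaling, DESeq2, limma-voom, the replicate block, and without PF-9363 1. The 1 macrophage marker higher lost its call without SETBP1-D868N 1 or 2. Library-size scaling also gave 4 in place of 2 immediate-early genes lower with PF-9363. Depth limits Fosb in both experiments and Fosl1 with PF-9363.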

Other observations

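Other marker lists moved as well. Of 10 stem and progenitor markers, 6 rose and 4 fell with SETBP1-D868N. Meis1 (1.09), Myb (0.82) and Cd34 (0.27) were higher, and Ly6a (−1.11), Kit (−0.66) and Flt3 (−0.29) lower. With PF-9363, 5 rose, 2 fell and 3 were not called. Gata2 was at 2.40, Kit at 1.45, Meis1 at 0.34, a call lost under 4 alternatives, and Myb at −2.71. Gata2 is also in the mast cell and basophil list, so it is counted in both lists. Of 7 megakaryocyte markers, 6 were tested with SETBP1-D868N, where Itga2b (0.22) rose and Ppbp (−0.76), Pf4 (−0.62) and Vwf (−0.50) fell, and 4 with PF-9363, where Vwf (2.78), Itga2b (2.65) and Pf4 (0.45, a call lost under 8 alternatives) rose and Ppbp (−0.82) fell. The erythroid genes Hbb-bt (1.92) and Klf1 (0.97) rose with SETBP1-D868N, and Gata1 (1.74) and Hbb-bt (1.15) rose with PF-9363. Nkg7, a granule gene of cytotoxic lymphocytes, rose with SETBP1-D868N (0.47) and fell with PF-9363 (−4.61). Cd79b, part of the B cell receptor, also fell with PF-9363 (−6.71, or −4.37 with that group set to a floor of 3 counts). Pdgfrb, a stromal gene, had 0.29 (a call lost under 3 alternatives) and 1.49, and Pecam1 fell with PF-9363 (−0.43).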
